A study of Mus musculus with 6 samples.

Results

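The transporters that carry dietary peptides and amino acids across the absorptive cells of the gut were followed through single-cell RNA sequencing of the mouse small intestinal mucosa. Members were taken by gene symbol, namely Slc15a1, Slc6a19, Slc7a9, Slc3a1, Slc7a7, Slc3a2, Slc1a1, Slc7a8 and Slc6a20a, which are 9 of the 32285 genes in the count tables. The mice were on a C57BL/6 background, and the methods state that they were young and matched for age and sex. IE-HuR-/- mice carried floxed HuR alleles (HuR fl/fl) and a villin-Cre transgene, whose promoter is active in the intestinal epithelium. Control littermates carried the floxed alleles without Cre, and the labels call them wild-type. Each of the 3 control and 3 IE-HuR-/- libraries came from the small intestinal epithelium under normal feeding per the labels, whereas the methods describe food deprivation before experiments. The methods name the middle small intestine for histology and for extraction of protein and RNA. For the cells sequenced they name no segment.

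Most absorbed dietary protein enters enterocytes as short peptides and free amino acids. Slc15a1 encodes PepT1, the proton-coupled carrier of dipeptides and tripeptides in the brush border. Slc6a19 encodes the sodium-dependent carrier of neutral amino acids, Slc6a20a the carrier of proline and other imino acids, and Slc1a1 the carrier of glutamate and aspartate. Slc7a9 and Slc3a1 encode the light and heavy chains of the brush border exchanger for cystine and cationic amino acids, whose loss causes cystinuria. On the basolateral side, Slc3a2 encodes the heavy chain (CD98) that pairs with the light chains Slc7a7, for cationic amino acids, and Slc7a8, for neutral ones.

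The libraries held 60706 barcodes and 428980031 unique molecular identifiers (UMIs, 1 per captured RNA molecule), between 59518012 and 91818560 UMIs per library. Cells were assigned to classes by fixed minimum shares of marker UMIs, without clustering. A cell with at least 1000 UMIs was called enterocyte-like when enterocyte markers made up at least 3% of its UMIs. It also had to pass a minimum share of epithelial markers and meet no gate of another class. These 20600 cells, between 2410 and 5169 per library, carried 266673091 UMIs. Other epithelial classes were smaller, with 1113 goblet-like, 231 enteroendocrine-like, 199 progenitor-like, 112 tuft-like and 31 Paneth-like cells. A further 12873 cells of at least 1000 UMIs met no gate and were left unassigned, with 72129162 UMIs. Their median mitochondrial share was 22.3%, 24.0% and 28.8% in the control libraries and 22.0%, 14.5% and 17.5% in the others. Whether enterocytes are among them was not tested. UMIs were summed per library and class, so that the 6 libraries served as replicates. Over all barcodes, libraries of the same label differed beyond counting noise, with a chi-square per degree of freedom of at least 11.5. Any pair shared between 22 and 44 barcodes. A differing mix of cells can also give such a chi-square, and the labels do not say whether each library is a single animal. In enterocyte-like sums the spread within labels was small, with a common biological coefficient of variation of 0.049 in the edgeR fit. Levels below are CPM (UMIs relative to the library's total in that class), scaled between libraries by TMM where stated.

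HuR is encoded by Elavl1, whose RNA did not fall under the IE-HuR-/- label. Its TMM-scaled level in enterocyte-like cells was 26.7, 28.6 and 27.2 CPM in the control libraries and 32.7, 32.3 and 33.2 CPM in the others, with no overlap. The log2 fold change was 0.25 (SE 0.0482, edgeR adjusted p = 5.38e-05), and 0.05 without TMM scaling, where it did not pass. Protein was not measured here, and whether the counted reads lie outside the deleted part of the gene is not given in the sources used here, so this RNA does not check the labels.

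Of the epithelial classes, enterocyte-like cells held the highest unscaled level of 8 of the 9 transporter RNAs. Slc1a1, the glutamate carrier, was the exception, and its highest level was in progenitor-like cells. Slc15a1 had 786 ± 6.56 CPM in enterocyte-like cells of the control libraries (SD, n = 3), 518 ± 22.5 CPM in goblet-like, 494 ± 75.1 CPM in enteroendocrine-like, 110 ± 32.1 CPM in tuft-like and 55.2 ± 65.5 CPM in progenitor-like cells. Goblet-like and enteroendocrine-like libraries overlapped, as did tuft-like and progenitor-like ones. For Slc6a20a the same order of classes gave 176 ± 5.74, 111 ± 11.9, 52.8 ± 11.4, 35.1 ± 11.3 and 27.2 ± 18.0 CPM in the control libraries. There the last 3 classes overlapped between neighbours. Paneth-like cells, with 31 cells in all, gave between 2 and 55 UMIs per member and are not ranked.

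Between enterocyte-like and progenitor-like cells of the same libraries, all 9 members passed the test, beside 71.8% of all 11267 genes tested. In enterocyte-like cells 8 of the 9 were more abundant, beside 41.0% of all genes, and 30.7% of all genes were less abundant. The log2 fold changes ran from 1.85 (SE 0.174) for Slc7a8 and 2.39 (SE 0.189) for Slc3a2 to 4.49 (SE 0.568) for Slc15a1 and 4.68 (SE 0.655) for Slc6a19. Slc1a1 was less abundant, by a log2 fold change of -1.94 (SE 0.316, edgeR adjusted p = 4.39e-05). Its 99 UMIs in progenitor-like cells came to 34.8, 73.3 and 60.6 CPM in the control libraries and 43.0, 15.7 and 18.1 CPM in those labelled IE-HuR-/-, against 5.51 to 6.97 CPM over all 6 enterocyte-like sums. Every progenitor-like sum was thus above every enterocyte-like sum. TMM scaling moved the median log2 fold change of all genes in this contrast from -0.55 to 0.27, and none of the 9 directions turned without it. In the control libraries alone Slc6a19 did not pass (adjusted p = 0.0527).

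Against goblet-like cells, 7 members were more abundant in enterocyte-like cells, where 26.2% of all 11377 genes were and 53.0% passed in either direction. Slc7a8, the basolateral exchanger of neutral amino acids, differed most, with a log2 fold change of 1.21 (SE 0.195, edgeR adjusted p = 0.00137). The other 6 lay between 0.35 and 0.61. Slc3a2 (log2 fold change 0.11, SE 0.0604) and Slc1a1 (-0.15, SE 0.159) did not pass. In the IE-HuR-/- libraries alone Slc6a20a did not pass either (0.25). Goblet-like sums held 31068 CPM of enterocyte marker RNA, and enterocyte-like sums 68708 CPM.

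UMIs of these transporters were also found in lymphocytes, which should lack most of them. When every cell was thinned to 3000 UMIs, at least 1 Slc15a1 UMI was found in 66.5% of the 12442 enterocyte-like cells kept and 20.7% of the 5187 T or NK-like ones, and for Slc6a19 these shares were 64.2% and 17.6%. Without thinning, Slc15a1 was seen in 63.5% and 30.9% of cells, at median depths of 4836.5 and 4894 UMIs. With thinning, the shares were 50.8% and 5.75% for Slc7a9, 32.9% and 3.49% for Slc3a1, 31.6% and 5.15% for Slc7a7, 20.1% and 3.41% for Slc6a20a, and 15.3% and 2.70% for Slc7a8. For Slc1a1 they were 1.41% and 0.366%. Slc3a2 was seen in 29.98% and 28.2%, and lymphocytes are known to express this heavy chain. Per 1000 UMIs of enterocyte markers, T or NK-like sums held 15.3 UMIs of Slc15a1 and enterocyte-like sums 10.1, while progenitor-like sums held 5.85 UMIs of Slc1a1 and enterocyte-like sums 0.0887. The part of free RNA in the levels outside enterocyte-like cells was not tested.

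**Figure D1:**
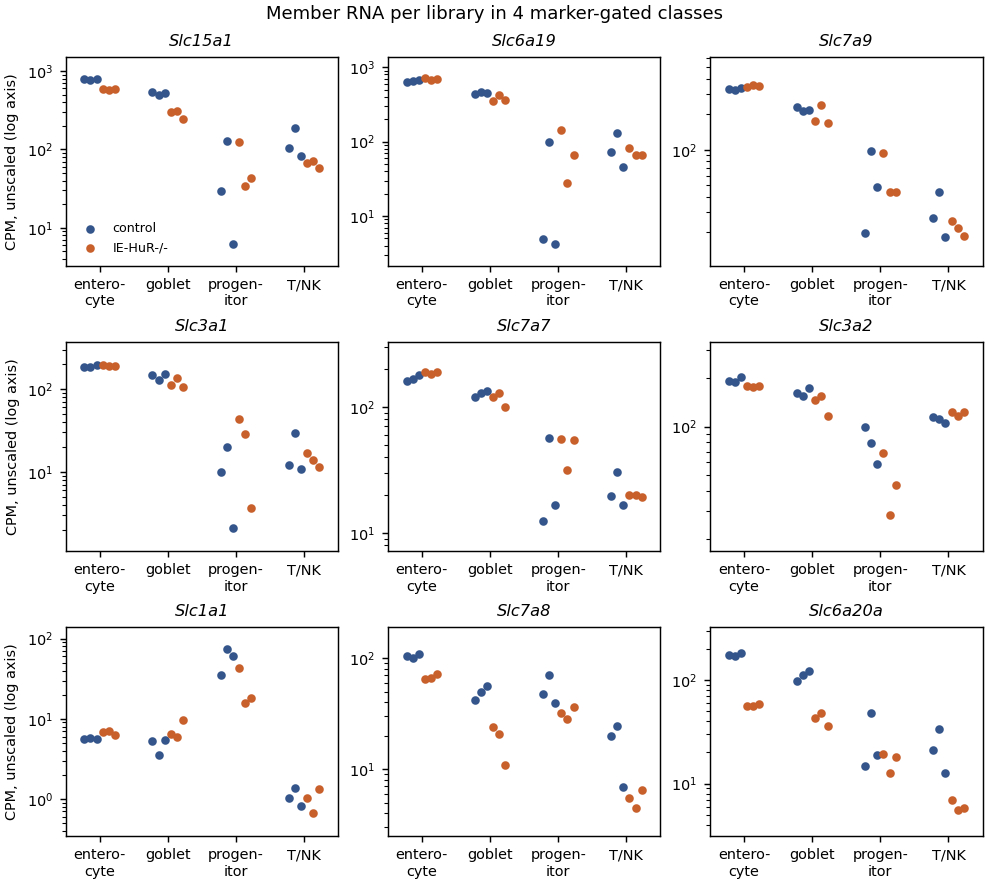
Unscaled CPM of each transporter RNA (log axis) in enterocyte-like, goblet-like, progenitor-like and T or NK-like cells, 1 point per library, blue for control and orange for IE-HuR-/-. Pooled over libraries, every member but Slc1a1 is highest in enterocyte-like cells, whereas all 6 progenitor-like points of Slc1a1, from 15.7 to 73.3 CPM, lie above its enterocyte-like points.

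Enterocytes leave the crypt and move up the villus as they mature, and the members were next followed along that path. Within each library, enterocyte-like cells were ranked by 8 genes known from the villus tip and 9 known from its base, none of them a member, and cut into 5 bins of equal cell number, from bin 1 at the base to bin 5 at the tip. Of genes kept out of the ranking as a check, all 4 tip genes (Nt5e, Klf4, Egfr, Ceacam20) were more abundant in bin 5, and 3 of 4 base genes (Nlrp6, Il18, Hmgb2) in bin 1. The remaining one, Stmn1, was more abundant at the tip (log2 fold change 0.76), at means of only 1.61 CPM in bin 1 and 2.78 CPM in bin 5. Hmgb2 and Stmn1 were also progenitor markers of the gating, so cells rich in progenitor markers had left the enterocyte-like class before ranking. Of the base genes, only Nlrp6 and Il18 were thus a check apart from the gating. Depth differed along the ranking, with a median of 7352 UMIs per cell in bin 1, 2585 in bin 3 and 16385 in bin 5, and the median mitochondrial share was 3.55%, 2.57% and 12.9%. Their part in the profiles was not tested beyond the thinned ranking given below. Each library also held cells with and without RNA of the ileal genes Fabp6 and Slc10a2. Every member differed between such cells in every library, as given below, and the part of this in the profiles was not tested.

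The transporters divided into a group that rose toward the tip and a group that fell. Slc15a1, Slc6a19, Slc3a1 and Slc7a9 were more abundant in bin 5 than in bin 1, while Slc7a7, Slc3a2, Slc6a20a, Slc7a8 and Slc1a1 were less abundant. All 9 passed the test, as did 83.0% of all 10383 genes, 39.7% of them higher and 43.3% lower at the tip. In every member, all 6 libraries moved in the direction given. Brush border carriers stood in both groups, whereas the basolateral genes Slc7a7, Slc7a8 and Slc3a2 were all in the falling one.

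Slc15a1 had TMM-scaled levels of 457 CPM in the lowest library, 491 at the median and 554 in the highest in bin 1, and 781, 854 and 943 CPM in bin 5. The lowest tip value was above the highest base value, and the log2 fold change was 0.78 (SE 0.0398, edgeR adjusted p = 5.63e-20). Slc6a19 rose from a median of 516 CPM (415 to 636) to 782 CPM (738 to 823), with a log2 fold change of 0.60 (SE 0.0664, edgeR adjusted p = 1.18e-09). Its mean over libraries was highest one bin below the tip, under both labels.

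The 2 chains of the cystine exchanger rose unequally. Slc3a1, the heavy chain, rose from a median of 153 CPM (132 to 176) to 254 CPM (228 to 264), with a log2 fold change of 0.71 (SE 0.0466). Slc7a9, the light chain, moved from 329 CPM (293 to 380) to 391 CPM (326 to 442), and these ranges overlapped. Its log2 fold change of 0.21 (SE 0.0395, edgeR adjusted p = 1.34e-05) turned to -0.20 without TMM scaling, which moved the median of all genes from -0.06 to -0.46. Across the 30 sums of library and bin, after centring each library, the 2 chains had a Pearson r of 0.79, a description only, since the sums share libraries and depth.

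Slc1a1 fell the most. Its level went from a median of 14.6 CPM (11.6 to 19.1) in bin 1 to 0.876 CPM (0.395 to 1.41) in bin 5, with a log2 fold change of -4.12 (SE 0.174, edgeR adjusted p = 1.81e-22). The first step was the steepest, since bin 2 was already at a median of 4.55 CPM and bin 3 at 3.42 CPM. Slc7a8 fell from 147 CPM (130 to 167) to 23.9 CPM (17.2 to 26.7), a log2 fold change of -2.71 (SE 0.0686). Slc6a20a fell from 168 CPM (107 to 250) to 42.5 CPM (24.1 to 65.7), a log2 fold change of -2.05 (SE 0.0913), and its wide ranges hold both labels, which are compared below.

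The heavy chain Slc3a2 and its light chain Slc7a7 fell by less. Slc3a2 went from 259 CPM (233 to 268) to 121 CPM (119 to 127), a log2 fold change of -1.06 (SE 0.043), and Slc7a7 from 222 CPM (187 to 255) to 151 CPM (120.2 to 177), a log2 fold change of -0.55 (SE 0.0421). The value for Slc3a2 lay between those of its light chains Slc7a7 and Slc7a8, differences that were not tested. Pearson r over the 30 sums was 0.90 for Slc3a2 with Slc7a7 and 0.97 with Slc7a8.

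When cells were thinned to 3000 UMIs before ranking, the 9 directions stayed and all 9 members passed, with log2 fold changes of 1.04 for Slc15a1, 0.72 for Slc6a19, 0.91 for Slc3a1, 0.23 for Slc7a9, -0.45 for Slc7a7, -1.02 for Slc3a2, -1.87 for Slc6a20a, -2.75 for Slc7a8 and -4.35 for Slc1a1. Against the mean of both ends, the middle bin was higher for Slc7a8 (log2 fold change 0.52, SE 0.0579) and Slc6a20a (0.43, SE 0.0782), so that on the log2 scale their fall was larger above the middle bin than below it. Slc15a1 (0.15), Slc6a19 (0.22) and Slc7a9 (-0.15) also passed this test, beside 36.4% of all genes, 19.9% higher and 16.5% lower. With thinned cells Slc15a1 (-0.04) and Slc6a19 (0.02) no longer did, nor did Slc7a9 (-0.01) without TMM scaling.

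**Figure D2:**
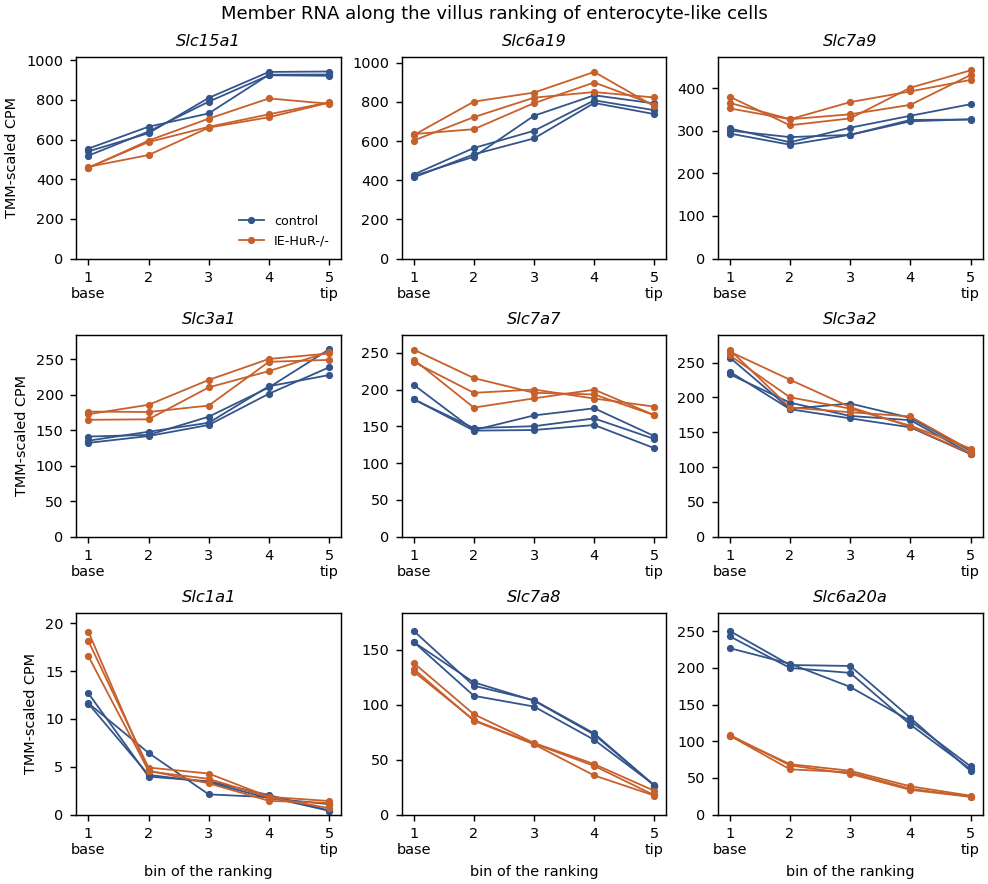
TMM-scaled CPM of each transporter RNA in 5 bins of enterocyte-like cells ranked from villus base (bin 1) to tip (bin 5), 1 line per library, blue for control and orange for IE-HuR-/-. In every library Slc15a1, Slc6a19 and Slc3a1 stand higher in bin 5 than in bin 1, and Slc7a8, Slc6a20a and Slc1a1 lower. From bin 4 to bin 5, Slc6a19 falls in every library, and Slc15a1 falls in control replicate 2 and IE-HuR-/- replicate 1. The climb of Slc7a9 from bin 1 to bin 5 is small and turns to a drop without TMM scaling.

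Genes with the most similar profile over the 30 sums were taken among 4563 genes of at least 20 CPM, members and ranking genes left out. Among the 3 genes closest to Slc7a8 were the disaccharidase Sis (r = 0.996) and Gna11 (0.995). For Slc6a20a they were Atp1b1, the beta subunit of the sodium pump, Nme7 and Chpt1 (each 0.99). The genes closest to Slc1a1 were the ribosomal protein genes Rplp1, Rps15 and Rps4x (each r = 0.98). For Slc15a1 they were Raph1, Sgk2 and Adap1 (all 0.98), for Slc6a19 Rdh9, Elmo1 and Enpp7 (0.96, 0.96 and 0.95), for Slc3a1 Chka, Anxa4 and Slc34a2 (each 0.97), for Slc7a9 Dgat1, Tmem87b and Aoc1 (0.94, 0.93 and 0.92), for Slc7a7 Mep1b, Tmem82 and Cyp4f14 (0.94, 0.93 and 0.93), and for Slc3a2 they included Smim24 and Tmem98 (both 0.98). Sums of 1 library are not independent, so these values describe likeness only.

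The start regions of the cystine exchanger genes are shown because the 2 chains form 1 transporter and were both higher at the tip after TMM scaling. Windows of 300 bases, 250 before and 50 after each annotated start, were available from RefSeq (GRCm38.p6) for all 9 members, 14 windows in all. In GENCODE M21, on the mm10 assembly that the labels name, Slc7a9 lies at chr7:35448796-35466036 on the forward strand and Slc3a1 at chr17:85028376-85064236, also forward, where its end overlaps Prepl on the opposite strand by 767 bases. Both start regions hold the letters AGATAA, a core bound by GATA factors, which 11.2% of all 32851 windows hold on either strand and which Slc7a7 holds too. The Slc3a1 region also holds CAAAGTCCA, a core of the HNF4 motif, found in 0.475% of all windows and in no other member. The RefSeq start used for Slc7a9 lies further along than its GENCODE start, so both Slc7a9 stretches below lie inside the GENCODE gene. Both Slc3a1 stretches lie before the GENCODE start of Slc3a1. Capitals mark the motif, in forward or reverse complement.
Slc7a9, chr7:35448875-35448904, forward strand, motif from base -205 of the RefSeq start: tgatctaggcacAGATAAataaaaccgaaa
Slc7a9, chr7:35448914-35448943, forward strand, motif reversed from base -166: cagaagctgaacTTATCTgattctcctatt
Slc3a1, chr17:85028216-85028245, forward strand, motif from base -119: cacccggtataaAGATAAtttttgcacaca
Slc3a1, chr17:85028298-85028327, forward strand, motif from base -39: cttggctggaCAAAGTCCAgccatgattat
A match of letters is a description and no evidence of binding.

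The labels were compared next within enterocyte-like cells. Slc6a20a, the imino acid carrier, was the member that differed most and was far less abundant in the libraries labelled IE-HuR-/-, and Slc7a8 and Slc15a1 were also less abundant. Slc1a1, Slc7a7, Slc7a9, Slc6a19 and Slc3a1 were more abundant, and Slc3a2 did not pass the test. So 8 of 9 members were called, 5 higher and 3 lower, while 58.8% of all 12537 genes were called in this comparison, 29.6% higher and 29.2% lower, so a call alone sets no member apart. The other called members lay between -0.42 and 0.46 on the log2 scale. TMM scaling bears on these directions, since the median log2 fold change of all genes was -0.01 with it and -0.21 without. Of the called genes, 50.4% were higher with scaling and 22.5% without, and without it the members' calls became 2 higher (Slc7a7, Slc1a1) and 4 lower (Slc15a1, Slc3a2, Slc7a8, Slc6a20a).

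Slc6a20a lies at chr9:123634770-123678885 on the reverse strand. Its TMM-scaled level was 164, 159 and 169.8 CPM in the control libraries and 61.4, 60.6 and 62.9 CPM in those labelled IE-HuR-/-. No IE-HuR-/- value came near a control value, and the log2 fold change was -1.42 (SE 0.0444, edgeR adjusted p = 8.19e-22). After thinning, 26.9% ± 0.401 of enterocyte-like cells in the control libraries and 11.3% ± 0.476 in the others had at least 1 UMI (SD, n = 3), beside 5.58% ± 2.905 and 1.44% ± 0.196 of T or NK-like cells. Its paralog Slc6a20b, which may share reads with it, had 3.57 ± 0.36 CPM (SD, n = 3) and 0.926 ± 0.158 CPM, a log2 fold change of -1.94 (SE 0.155). The start of Slc6a20a overlaps Ccr9 on the opposite strand by 447 bases.

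Slc7a8, at chr14:54722209-54781946 on the reverse strand, had 97.5, 94.4 and 101 CPM in the control libraries and 71.0, 71.0 and 76.2 CPM in the others. The groups did not overlap, and the log2 fold change was -0.42 (SE 0.0459, edgeR adjusted p = 3.7e-09). Slc15a1, at chr14:121459621-121505252 on the reverse strand, had 734, 728 and 737 CPM in the control libraries against 640.0, 609 and 618 CPM. All 3 IE-HuR-/- libraries were below all control libraries, as in 32.1% of all genes, with a log2 fold change of -0.24 (SE 0.0397, edgeR adjusted p = 7.68e-06). Slc15a1 and Slc6a20a passed in the same direction in all 21 alternatives tried, and Slc7a8 in 20 of 21 (the exception is given with the ileal split).

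Among the members that were more abundant, Slc7a7 (chr14:54369442-54417780, reverse strand), the basolateral exchanger of cationic amino acids, had 151, 157 and 167 CPM in the control libraries and 206, 195 and 199.7 CPM under IE-HuR-/-. Its log2 fold change of 0.34 (SE 0.0441, edgeR adjusted p = 9.79e-08) stayed positive and called in all 21 alternatives. Slc6a19 (chr13:73679745-73704865, reverse strand) had 589.7, 613 and 622 CPM against 764, 725 and 730.1 CPM, a log2 fold change of 0.28 (SE 0.0407, edgeR adjusted p = 7.02e-07). Slc7a9 had 302, 299 and 313 CPM against 369, 377 and 365 CPM (log2 fold change 0.28, SE 0.0403), and Slc3a1 had 173, 172 and 182 CPM against 212, 204 and 202 CPM (0.23, SE 0.0421). In each of these 4 genes the groups did not overlap, as in 31.6% of all genes in this direction. Without TMM scaling the last 3 were no longer called, with log2 fold changes of 0.08, 0.08 and 0.03. An antisense transcript, Slc6a19os, overlaps Slc6a19 by 5040 bases.

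Slc1a1 (chr19:28835049-28913960, forward strand) was the scarcest member, with 5.13, 5.36 and 5.20 CPM in the control libraries and 7.39, 7.48 and 6.67 CPM under IE-HuR-/-. The log2 fold change was 0.46 (SE 0.0827, edgeR adjusted p = 2.36e-05). Its call was lost when the minimum enterocyte marker share was raised to 2 times its value (log2 fold change 0.08) and when cells were thinned (0.33). Slc3a2 (chr19:8706882-8723369, reverse strand) had 178, 176 and 188 CPM against 193, 189 and 188 CPM, a log2 fold change of 0.07 (SE 0.0418, edgeR adjusted p = 0.135) that turned to -0.13 and was called without TMM scaling. The direction of the heavy chain thus depends on the scaling, while its light chains were called in opposite directions with and without it.

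**Figure D3:**
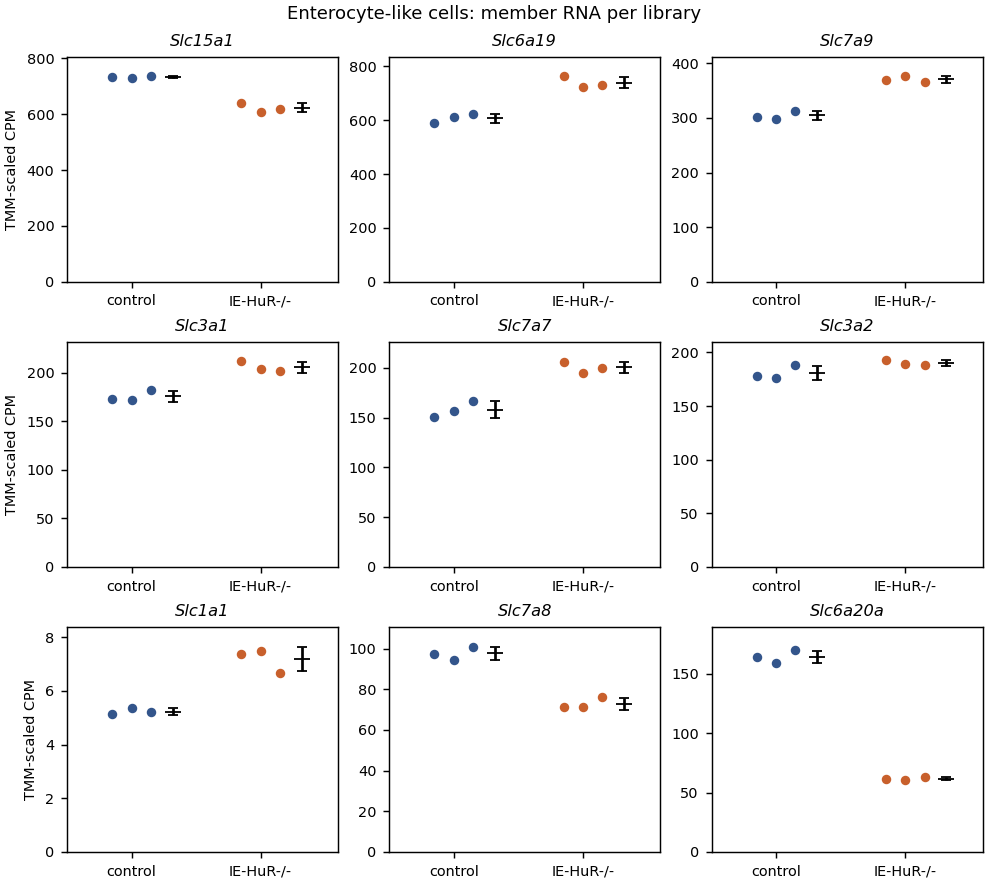
TMM-scaled CPM of the 9 transporter RNAs in enterocyte-like cells, 1 point per library, with the mean and SD of the 3 libraries of each label as a black bar. Slc6a20a sits at 159 to 169.8 CPM under control and 60.6 to 62.9 CPM under IE-HuR-/-, and the other members differ by less, with Slc3a2 reversing without TMM scaling.

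Within the villus bins the label differences were not all uniform. Slc6a20a was less abundant in every bin, with log2 fold changes of -1.16, -1.64, -1.72, -1.86 and -1.43 from base to tip, and so was Slc7a8, with -0.27, -0.41, -0.66, -0.80 and -0.59. Slc15a1 was lower in all 5 bins as well, from -0.20 to -0.35. Slc7a7 and Slc7a9 were higher in all 5, from 0.22 to 0.41 and from 0.20 to 0.28. With cells thinned before ranking, Slc7a7 passed in bins 1 and 2 and Slc7a9 in bin 1 only, and in bin 4 both had 0.045 (adjusted p = 0.839 and 0.801). In bin 4 both calls were also lost when control replicate 1 or 2 was left out. From base to tip, 8, 7, 7, 6 and 5 of the 9 members were called. Over all genes the called share was 39.8% in bin 1 (20.6% higher, 19.2% lower), 35.6% in bin 2 (18.3% higher, 17.3% lower), 40.4% in bin 3 (20.1% higher, 20.3% lower), 43.5% in bin 4 (21.5% higher, 22.0% lower) and 49.4% in bin 5 (23.8% higher, 25.7% lower). With cells thinned before ranking, 7, 5, 2, 3 and 3 members were called, beside 1260 of 6650, 1088 of 6555, 1415 of 6494, 1629 of 6261 and 1418 of 5710 genes.

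Slc6a19 was called at the base and not at the tip. In bin 1 it had 415, 429 and 422 CPM in the control libraries and 631, 636 and 603 CPM in the others, while in bin 5 the values 738, 758 and 793 overlapped 778, 786 and 823 CPM. With each bin scaled on its own, the log2 fold change was 0.55 (SE 0.0549) at the base and -0.03 (SE 0.0448) at the tip. The levels above and the test of the difference between tip and base scaled the bins together. That test gave -0.51 (SE 0.0682, edgeR adjusted p = 1.73e-07), which need not equal the gap between those fold changes. It was passed by 17.5% of all 10777 genes, 10.8% higher and 6.7% lower. Slc3a1 differed in the same way, with 135, 132 and 141 CPM against 173, 176 and 165 CPM at the base, 228, 239 and 264 CPM against 258, 249.3 and 261 CPM at the tip, and a difference between tip and base of -0.27 (SE 0.0684, edgeR adjusted p = 0.00353). This call of Slc3a1 was lost without control replicate 2 (-0.22, adjusted p = 0.069) or control replicate 3 (-0.22, adjusted p = 0.0571), that of Slc6a19 in none of the alternatives. These alternatives did not include leaving out TMM scaling, which was not tried for the label tests in bins or for their difference. The difference of Slc7a8 (-0.25, adjusted p = 0.0489) was lost in 7 of 8 alternatives and held without IE-HuR-/- replicate 3 (-0.33). Genes that set the base ranking moved with the label, since summed levels of the 9 base genes were 8452 to 9731 CPM in control and 18731 to 19659 CPM in IE-HuR-/- enterocyte-like sums, before scaling. The 8 genes that set the tip ranking moved too, before scaling. In 4 of them all IE-HuR-/- libraries were above all control libraries, and in 4 below. Ranking without Reg1, Reg3b and Reg3g left Slc6a19 and Slc3a1 called. That ranking kept the other base genes and all tip genes, whose part in these differences was not tested.

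In goblet-like cells the same 3 members were less abundant, beside free RNA and enterocyte marker RNA as described above. The median share of enterocyte markers in goblet-like cells also differed between labels. It was 1.52%, 1.44% and 0.976% in the control libraries and 0.865%, 0.874% and 0.803% in the others. The part of this in the goblet-like label differences was not tested. Slc6a20a had 92.5, 109 and 114 CPM in the control libraries and 45.2, 50.2 and 38.7 CPM in the others (log2 fold change -1.24, SE 0.115, edgeR adjusted p = 9.68e-08). Slc7a8 had a log2 fold change of -1.23 (SE 0.218), Slc15a1 of -0.69 (SE 0.0989) and Slc1a1 of 0.83 (SE 0.271, edgeR adjusted p = 0.0282), and the other 5 did not pass. So 4 of 9 were called, beside 26.8% of all 9084 genes, 14.4% higher and 12.4% lower. The call of Slc1a1 was lost when control replicate 2 (0.67) or IE-HuR-/- replicate 3 (0.58) was left out, without TMM scaling (0.65) and with DESeq2 (0.84). In progenitor-like sums none of the 7 members tested was called, with 13 of 4919 genes called (0.264%, of which 0.102% higher and 0.163% lower), 351 at an unadjusted p under 0.05 and 15 called by DESeq2. These sums held only 275674 to 478499 UMIs per library.

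**Figure D4:**
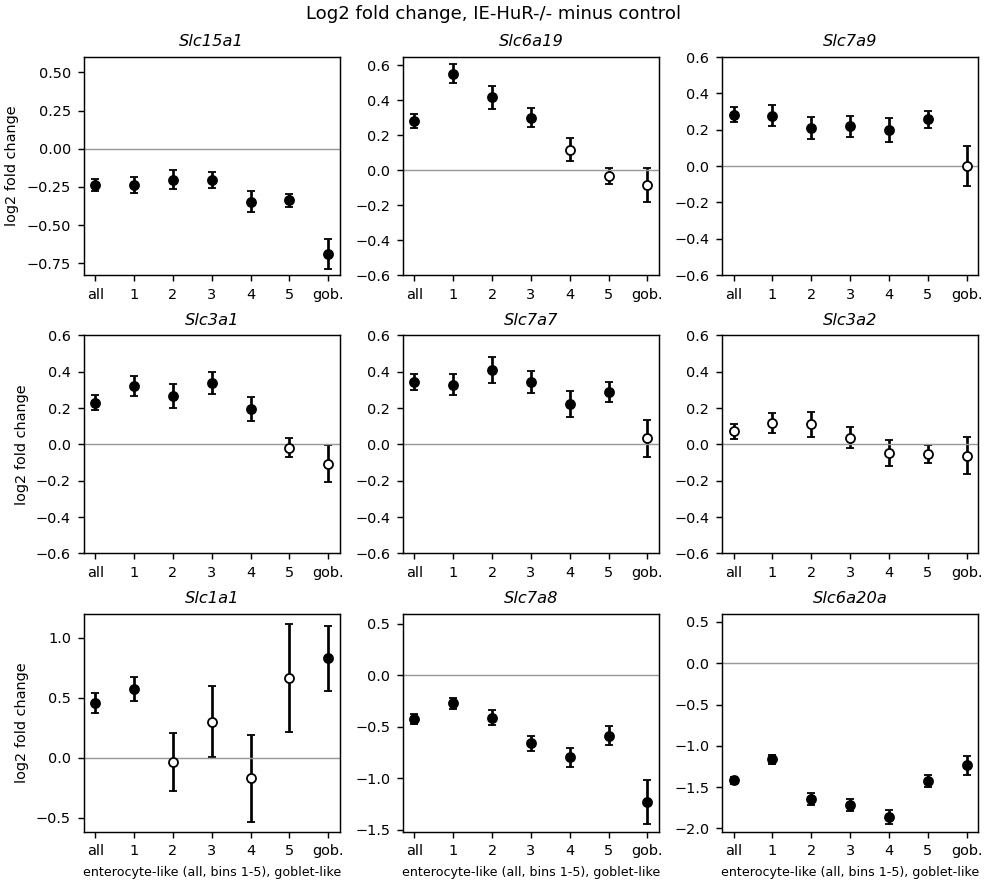
Log2 fold change with its SE (edgeR, IE-HuR-/- minus control) for each transporter RNA, in all enterocyte-like cells, in villus bins 1 (base) to 5 (tip) and in goblet-like cells, filled where the adjusted p passed. Slc6a20a lies between -1.16 and -1.86 throughout, and Slc6a19 goes from 0.55 in bin 1 to -0.03 in bin 5, each bin scaled on its own. Without TMM scaling the Slc3a2 value for all enterocyte-like cells turns from 0.07 to -0.13.

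Some markers of gut region differed with the label in the same sums. Fabp6, the bile acid binding protein of the ileum, had 694 ± 29.2 CPM (SD, n = 3) in control and 2924 ± 71.1 CPM in IE-HuR-/- enterocyte-like sums, and Slc10a2, the ileal bile acid carrier, 47.1 ± 1.04 and 98.8 ± 18.9 CPM. Of the 5 genes of proximal intestine, Lct, Adh6a and Slc40a1 were called lower and none higher, while of the 6 distal genes Fabp6 and Slc10a2 were higher and Guca2a and Osr2 lower. Of all genes, 58.8% were called in this comparison, 29.6% higher and 29.2% lower, so these counts alone set neither list apart. After thinning, 7.22% to 7.96% of enterocyte-like cells in the control libraries and 14.8% to 16.2% in the others held at least 3 UMIs of Fabp6 and Slc10a2, beside 0.172% to 1.62% and 3.61% to 3.95% of T or NK-like cells. No such UMI was found in 81.7% to 84.9% and 64.2% to 65.2% of enterocyte-like cells, and in 82.4% to 94.0% and 60.3% to 63.9% of T or NK-like cells, so the shares without a UMI differed between labels in both classes. In bulk sums of this kind, a change in the mix of cells and a change in RNA per cell cannot be told apart.

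Enterocyte-like cells were split by these 2 ileal RNAs, a choice made after the data were seen. Both RNAs themselves differed between labels, so each part holds cells selected differently under each label. Slc1a1 was much more abundant in the cells with at least 3 such UMIs, at 19.8 to 37.5 CPM over the 6 libraries before scaling, than in cells with none, at 1.75 to 3.36 CPM, a ratio of means of 9.62. Slc7a8 went the other way, with 23.4 to 41.2 CPM against 53.6 to 90.1 CPM. Slc6a19, Slc7a9 and Slc3a1 were higher in the cells with ileal UMIs in 6 of 6 libraries, with ratios of means of 1.63, 1.81 and 1.76. So were Slc7a7, Slc15a1, Slc3a2 and Slc6a20a, with ratios of 1.40, 1.33, 1.27 and 1.23. Slc7a8 was thus the only member that was lower. The share of all genes that differed in this way was not counted. No test was run on this split.

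The values of the label difference inside each part are therefore a description of those cells and not a comparison of like cells. Slc6a20a was lower in both, with log2 fold changes of -1.44 (SE 0.0881) in cells without ileal UMIs and -1.24 (SE 0.156) in cells with at least 3. Slc15a1 was lower in both, by -0.39 (SE 0.0677) and -0.26 (SE 0.0819), and Slc7a7 higher in both, by 0.27 (SE 0.0774) and 0.52 (SE 0.118). Slc1a1 had -0.09 (SE 0.341) and -0.12 (SE 0.297) and passed in neither. Slc7a8 had -0.47 (SE 0.0885, called) and -0.10 (SE 0.254, not called). Slc6a19, Slc7a9 and Slc3a1 passed in neither, with values between 0.06 and 0.22. Over all thinned cells, before the split, 5 of 9 members were called, beside 3657 of 9317 genes. Slc6a19 (0.12), Slc3a1 (0.10) and Slc1a1 (0.33) were not called there, so these 3 calls were already absent before the split. Without ileal UMIs 4 members and 2921 of 8720 genes were called, and with at least 3 such UMIs 3 members and 1637 of 5509 genes.

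**Figure D5:**
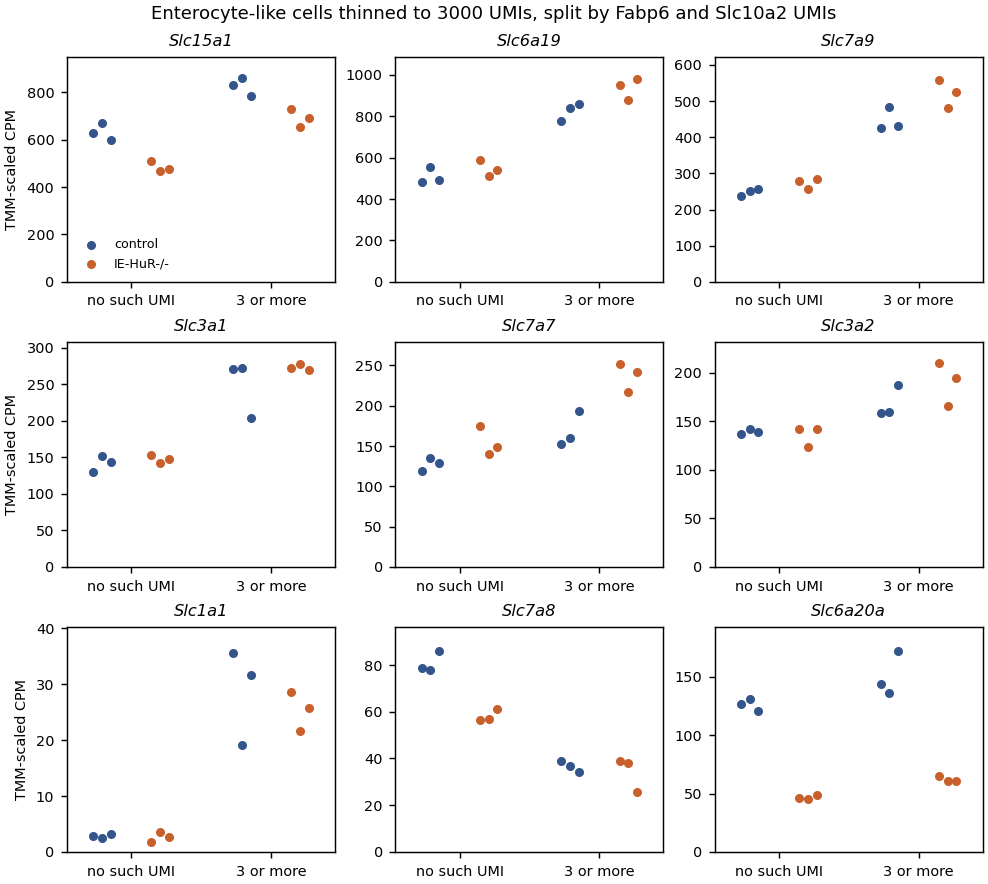
TMM-scaled CPM of each transporter RNA in enterocyte-like cells thinned to 3000 UMIs, split into cells without a Fabp6 or Slc10a2 UMI (left) and with 3 or more (right), 1 point per library, blue for control and orange for IE-HuR-/-, each part scaled on its own. Slc1a1 stands higher on the right, Slc7a8 lower, and the gap between labels in Slc6a20a is present in both parts.

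Other transporters of amino acids and peptides were read from a list of 45 genes, of which 25 could be tested in enterocyte-like cells. Of these 19 were called, 7 higher and 12 lower, where 58.8% of all genes were called, with a median log2 fold change of -0.09 beside -0.01 for all genes, and 5 higher and 15 lower without TMM scaling. Slc6a14, a carrier of neutral and cationic amino acids, had 0.578, 1.16 and 0.759 CPM in the control libraries and 15.7, 28.7 and 18.3 CPM in the others, with no overlap (log2 fold change 4.62, SE 0.434, edgeR adjusted p = 0.000964). Slc38a3 (1.69) and Slc6a18 (1.45) were higher and Slc6a20b (-1.94), Slc7a4 (-1.24) and Slc43a3 (-0.76) lower, all 5 at under 4 CPM on average. The genes named here were those with the largest changes. Other called genes of the list changed by less, some of them at higher levels, up to a mean of 204 CPM under IE-HuR-/-.

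Of 13 listed genes for partner proteins and ion coupling, 9 were tested, and 2 were called higher and 2 lower, or 1 and 6 without TMM scaling, beside 58.8% of all genes. Among those higher, Slc9a3r1, a scaffold protein of the brush border, had a log2 fold change of 0.36 (SE 0.0403). Atp1b1 (-0.15) and Kcnq1 (-1.42, at under 1 CPM) were lower. The median of the list was 0.03.

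Genes of the ATF4 response, the program that cells turn on when amino acids run short, were called in 11 of 18 tested, 8 higher and 3 lower, with a median log2 fold change of 0.23, and this share is close to the 58.8% of all genes called. Ddit4 rose from 5.13 ± 0.0632 to 14.3 ± 1.03 CPM (SD, n = 3 each; log2 fold change 1.47, SE 0.0733), and Atf3 (0.99), Asns, the asparagine synthetase (0.90), Eif4ebp1 (0.83) and Nupr1 (0.74) were also higher, whereas Cebpb (-0.76) was lower. Without TMM scaling the list stood at 7 higher and 5 lower. Clock genes moved too, with 4 of 14 tested genes higher and 8 lower, beside 29.6% and 29.2% of all genes. Without TMM scaling these counts were 3 and 10. Hlf (-2.35), Dbp (-1.49), Per2 (-1.48), Per3 (-1.06) and Per1 (-1.01) were lower and Cry1 (0.88) higher in the libraries labelled IE-HuR-/-. The part of region, clock time and feeding in the transporter differences was not tested.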

How the data were processed

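For each library the authors deposited unnormalized UMI counts by gene and barcode (cellranger 6.1.2 in the file headers; the submitters' processing notes name mm10, Cell Ranger and Seurat). The labels give a 5′ kit and the methods a 3′ kit and a human reference, although the tables list mouse genes. Cells with at least 1000 UMIs were gated by marker shares. Cells meeting several gates other than the enterocyte gate were set aside, save T or NK-like cells that also met the myeloid gate. A cell meeting a single other gate kept that class whatever its share of enterocyte markers. Goblet-like cells can thus include cells that also passed the enterocyte gate. Doublets were not otherwise removed. Counts were summed per library and tested in R 4.3.3 by edgeR 4.0.16 (TMM scaling; filterByExpr, minimum count 10, minimum total 15; robust quasi-likelihood F test; Benjamini-Hochberg adjusted p under 0.05); class and villus contrasts kept the library as a block. SE is the log2 fold change divided by the square root of F. The fits were tested on simulated counts with 200 genes changed. At a log2 change of 0.5, the label fit recovered 71.1% of them in enterocyte-like and 27.2% in goblet-like cells. Tip minus base recovered 76.9%, and the label difference at tip minus that at base 24.4%. At a log2 change of 2, the label fit recovered 89.7% in progenitor-like cells. Shares are of changed genes that were tested. Where recovery was low, a gene that did not pass may still differ by that much. Alternatives included DESeq2 1.42.0, no TMM scaling, no filter, other gates and depths, thinning and leaving out each library. Named genes were Elavl1, all members, up to 6 called genes per list with the largest change, and the 3 genes most like each member; some named by this rule are not reported here. Members and lists were chosen with earlier results of these data known. No batch, gut region or sampling time entered the fits. RNAs of gut region and clock genes differed with the label, so their part cannot be told apart from it. The p values measure the spread between these libraries, which the labels do not state to be single animals.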

Additional observations from a re-analysis of the deposited data

Results flagged for a closer look

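The label difference of 3 transporter RNAs differed between the tip bin and the base bin by the interaction test. Of all 10777 genes, 17.5% passed this test, 10.8% higher and 6.7% lower. It was -0.51 for Slc6a19, -0.27 for Slc3a1 and -0.25 for Slc7a8, on the log2 scale, tip minus base. Slc6a19 and Slc3a1 were more abundant in the libraries labelled IE-HuR-/- at the base and overlapped at the tip. With each bin scaled on its own, Slc7a8 was less abundant at both ends, by -0.27 at the base and -0.59 at the tip. The interaction test scaled the bins together, so its value need not equal the gap between these. With cells thinned before ranking, the interaction values were -0.49 for Slc6a19 and -0.51 for Slc3a1, both still called, and -0.82 for Slc7a8, not called. As given above, the call of Slc3a1 was lost without control replicate 2 or control replicate 3, and that of Slc7a8 in most alternatives.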

How the results depend on the processing

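Slc15a1, Slc7a7 and Slc6a20a kept direction and call in enterocyte-like cells under all 21 alternatives. Without TMM scaling, Slc3a2 moved to -0.13 and Elavl1 to 0.0481 (label), Slc1a1 to 0.0509 (enterocyte-like minus goblet-like, and 0.0514 in control libraries alone) and Slc7a9 to -0.20 (tip minus base), and calls became 1829 higher and 6291 lower in enterocyte-like cells, 758 and 2195 in goblet-like cells, 2737 and 5209 against progenitor-like, 4655 and 2076 against goblet-like, 2693 and 6075 for tip minus base and 4164 and 722 for the middle bin.
With cells thinned, an alternative chosen after seeing the data for the label comparison, 5 members were called (3657 genes) and Slc3a2 was -0.0207. Without ileal UMIs 4 were called (2921 genes), with Slc3a2 -0.0388, Slc1a1 -0.0948 and Osr2 0.0143. With at least 3 ileal UMIs 3 were called (1637 genes), with Slc1a1 -0.12, Elavl1 -0.28, Atp1b1 0.0549, Adh6a 0.51 and Slc10a2 -0.22, against 7375 genes in all cells. Thinned before ranking, members called were 2 in bin 3, 3 in bin 4 and 3 in bin 5, Slc15a1 in the middle bin was -0.0402, and genes called were 5510 for tip minus base, 1260, 1088, 1415, 1629 and 1418 in bins 1 to 5 and 264 for the difference between tip and base, against 8622, 4211, 3372, 3797, 4090, 4999 and 1882. Thinning leaves fewer UMIs and fewer genes tested.
Leaving out 1 library at a time gave 3 to 6 members called in bin 4, the lowest without control replicate 2. For the label difference at tip minus that at base it gave 1 to 3 members, with 1 without control replicate 2 or 3. Among values given in the text, ranges that crossed 0 included -0.26 to 0.0163 for Slc1a1 against goblet-like cells, -0.0523 to 0.00397 for Slc6a19 and -0.0579 to 0.0489 for Slc3a1 in bin 5, and -0.0307 to 0.025 for Slc15a1 in the difference between tip and base. In progenitor-like cells 6 to 37 genes were called, and 86 without a filter.
Same-numbered libraries did not deviate together (r = -0.043, -0.051 and 0.010 over 12537 genes). Differently numbered libraries had r from -0.060 to 0.104. These values cannot show whether libraries were collected or processed in pairs. The replicate block gave 7419 genes in enterocyte-like cells and 8 members called, as without it. Depth limits the progenitor-like sums, of 275674 to 478499 UMIs per library.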
